A study of Arabidopsis thaliana with 9 samples.

Results

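The comparison described here sets wild-type Arabidopsis thaliana seedlings grown with the small molecule hyperphyllin against wild-type seedlings grown with its solvent DMSO. It takes 6 of the 9 arrays of the study, chosen by their labels, 3 for each treatment. Both groups were Col-0 whole seedlings, 10 days old, and both carried 1% DMSO. The treated group had 30 µM hyperphyllin in addition. Seeds, about 5 to a well, were kept cold and dark for 2 days and then grown in 96-well plates in liquid half-strength Murashige and Skoog medium with 1% sucrose, at 26 °C in days of 16 h light and 8 h dark. The other 3 arrays, of the mutant amp1-13 grown with 1% DMSO, entered the fit for the estimate of the spread and served for tests of the difference between compound and mutant. RNA came from whole seedlings, so shoot and root RNA were measured together, and the labels describe the samples as biological replicates. AMP1 itself was not analysed here.

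Hyperphyllin is a compound that alters shoot growth in a way that resembles loss of AMP1, a putative carboxypeptidase of the endoplasmic reticulum whose mutants make leaves faster than wild type. Wall-loosening proteins such as expansins and xyloglucan endotransglucosylases change the extensibility of the plant cell wall, receptor kinases at the cell surface sense wall state and microbial molecules, and plastid genes serve photosynthesis and chlorophyll synthesis.

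The values are RMA log2 signals, and a difference of 1 on that scale is a 2-fold difference in signal. Of 22746 probe sets, 3023 were higher and 3544 lower with hyperphyllin at a limma adjusted p under 0.05, which is 28.9%. With 1 probe set for each of 13356 named genes, 11.0% were higher (1466 genes) and 15.8% were lower (2111 genes), together 26.8%. The median rise among called genes was 1.66-fold and the median fall 1.53-fold. A change of at least 2-fold was seen in 478 called rises and 319 called falls, and of at least 4-fold in 100 and 34. The groups did not overlap in 37.7% of genes. Of the 1557 genes that carry a symbol, 32.8% were called. The 11799 genes known here only by a locus tag enter these counts and are not described further.

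**Figure D1:**
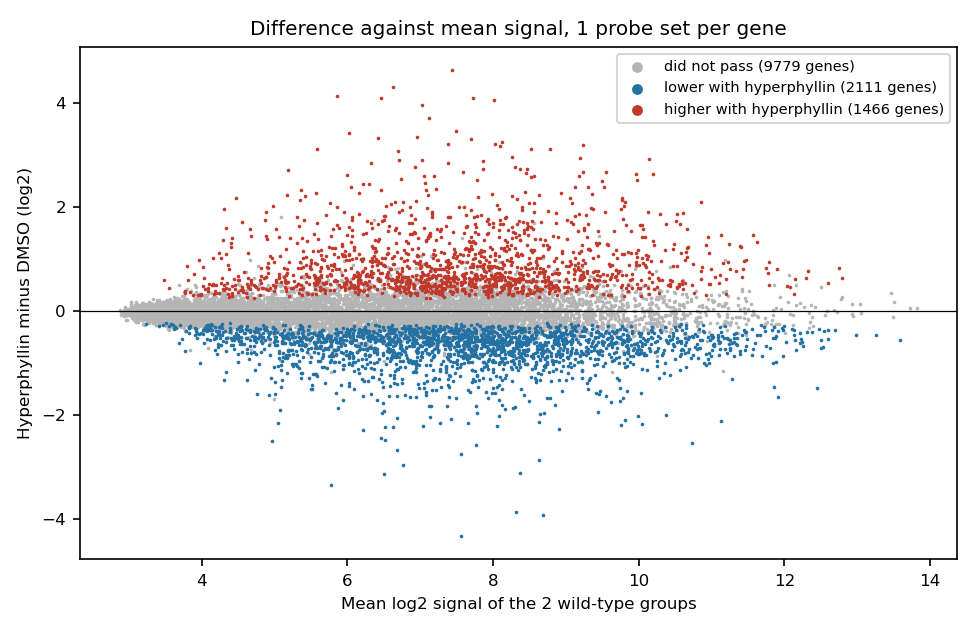
Each point is 1 of 13356 genes, with the mean log2 signal of the wild-type groups on the horizontal axis and the difference between hyperphyllin and DMSO (log2) on the vertical axis. Genes that passed the test are red where higher (1466) and blue where lower (2111), and the largest rises exceed the largest falls in number, with 100 against 34 beyond 4-fold.

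The 6 arrays had median log2 signals between 6.44 and 6.52. The control array numbered 2 stood apart from the other controls, with correlations of 0.983 and 0.987 with them against 0.995 between those. Among the 2111 genes called lower, that array was the control nearest to the hyperphyllin group in 74.3%, and among the 1466 called higher in 53.0%. Without it 4422 probe sets were higher and 4447 lower, and without control array 3 the counts were 1921 and 1960. The count lower was 2356 without control array 1, 2273 without treated array 1 and 2103 without treated array 2. The log2 difference between the 3' and 5' control probe sets for GAPDH was 1.01 to 1.57 with DMSO and 1.29 to 1.39 with hyperphyllin, the 1.01 being that of control array 2. For Actin it was 3.44 to 3.81 and 3.41 to 3.56, and for Ubq, ubiquitin, it was 1.44 to 1.58 and 1.39 to 1.45. The groups overlapped in each, for Ubq only through control array 2 and treated array 1.

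Gene families were compared with the background shares of 11.0% higher and 15.8% lower, and with the median log2 difference over all genes of -0.05. Lists came from gene names, so a pathway gene without a matching name is not on its list. Of the 1557 genes with a symbol 260 were higher and 251 lower (median -0.02), a larger share higher than over all genes. Each list is described by its counts and median. Some cell wall families held large rises. The 3 measured EXLA genes, which encode expansin-like A proteins, were all higher, while the 18 expansin genes as a whole had 3 higher, 5 lower and a median of -0.19. EXLA1 (AT3G45970) had log2 signals of 8.35, 7.96 and 8.31 with DMSO and 11.07, 11.23 and 10.37 with hyperphyllin. All 3 treated arrays lay above all 3 controls, a rise of 6.41-fold (log2 difference 2.68 ± 0.29 SE, adjusted p = 0.000371). EXLA2 (AT4G38400) rose 2.57-fold (adjusted p = 0.0026). EXLA3 (AT3G45960) rose 4.01-fold (adjusted p = 0.013), a call lost without control array 3 (adjusted p = 0.0576) or treated array 2 (0.0506). The true expansins went the other way where they passed the test. EXPA8 (AT2G40610), an alpha-expansin, had log2 signals of 8.94, 9.45 and 9.31 with DMSO and 7.16, 7.8 and 7.89 with hyperphyllin. The groups were separate, and the level with hyperphyllin was 3.07-fold lower (adjusted p = 0.000543). EXPA20 and EXPA4 were 1.45-fold and 1.42-fold lower, of 10 EXPA genes measured, of which 3 were lower and none higher. The EXPA4 call was lost without control array 3 (adjusted p = 0.0841) or treated array 1 (0.0643) or 2 (0.0771), and in the fit of only the wild-type groups (0.0536). The count of lower expansins was 3 without control array 3, treated array 1 or treated array 2. The root hair expansins EXPA7 and EXPA18 did not pass the test, with adjusted p of 0.517 and 0.652.

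Of 10 xyloglucan endotransglucosylase genes, whose enzymes cut and rejoin xyloglucan chains, 3 were higher and none lower (median 0.14). Without control array 2 the list had 2 higher and 3 lower, and without amp1-13 array 3 it had 1 lower. XTH18 (AT4G30280) had log2 signals of 8.93, 8.67 and 8.71 with DMSO and 11.09, 10.8 and 10.31 with hyperphyllin, with no overlap. It rose 3.9-fold (adjusted p = 0.000694), and XTH16 rose 1.6-fold (adjusted p = 0.00291). The third, XTH26, rose 1.57-fold (adjusted p = 0.0459), a call lost under 8 of 16 alternatives, among them leaving out any 1 control array (0.069 to 0.124) or treated array 1 (0.132) or 2 (0.157). Of 14 cellulose-synthase-like and other wall polysaccharide genes 6 were higher and none lower (median 0.18, with 0.06 without control array 1 and 0.34 without control array 2). In 5 of the 6 rises control array 2 was the control nearest to hyperphyllin, against 53.0% of all genes called higher. CSLC04 (AT3G28180), a glucan synthase of xyloglucan backbones, rose 2.4-fold (adjusted p = 0.00226). CSLD2 (AT5G16910), of a family needed for root hair growth, rose 2.22-fold (adjusted p = 0.00586). CSLA03, of the glucomannan synthase family, rose 2.15-fold (adjusted p = 0.00461). COB, a membrane-anchored protein that guides cellulose deposition, rose 2.05-fold (adjusted p = 0.018). In COB the second control array read 10.87, against 9.63 and 9.93 in the other controls and 11.07 to 11.34 with hyperphyllin, and the call was lost without control array 1 (adjusted p = 0.0571), control array 3 (0.0744) or treated array 1 (0.0612). The xylem wall genes GUT2 and IRX15 did not pass the test.

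THE1 (AT5G54380), THESEUS1, a kinase that senses damage to the cellulose wall, had log2 signals of 6.92, 7.6 and 7.0 with DMSO and 8.7, 8.77 and 8.5 with hyperphyllin. The lowest treated array stood above the highest control, and the rise was 2.79-fold (adjusted p = 0.000644). FER (AT3G51550), FERONIA, its relative that binds RALF peptides, rose 2.25-fold (adjusted p = 0.00314), and was picked after its values were seen. Of 11 genes for RALF-like peptides none was higher and 4 were lower (median -0.26). RALFL27 (AT3G29780) had log2 signals of 7.87, 7.2 and 8.13 with DMSO and 5.32, 5.62 and 5.58 with hyperphyllin. The groups were far apart, and RALFL27 was 4.67-fold lower (log2 difference -2.22 ± 0.2 SE, adjusted p = 0.000192). The other called members of that list were weaker, and the count fell to 1 without control array 1 or without any 1 of the treated arrays, and to 2 without control array 3 or any 1 of the amp1-13 arrays. EXO (AT4G08950), EXORDIUM, an extracellular protein of cell expansion, had log2 signals of 8.79, 8.75 and 8.54 with DMSO and 10.53, 11.2 and 10.85 with hyperphyllin. Its groups did not overlap, and it rose 4.49-fold (adjusted p = 0.000144).

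**Figure D2:**
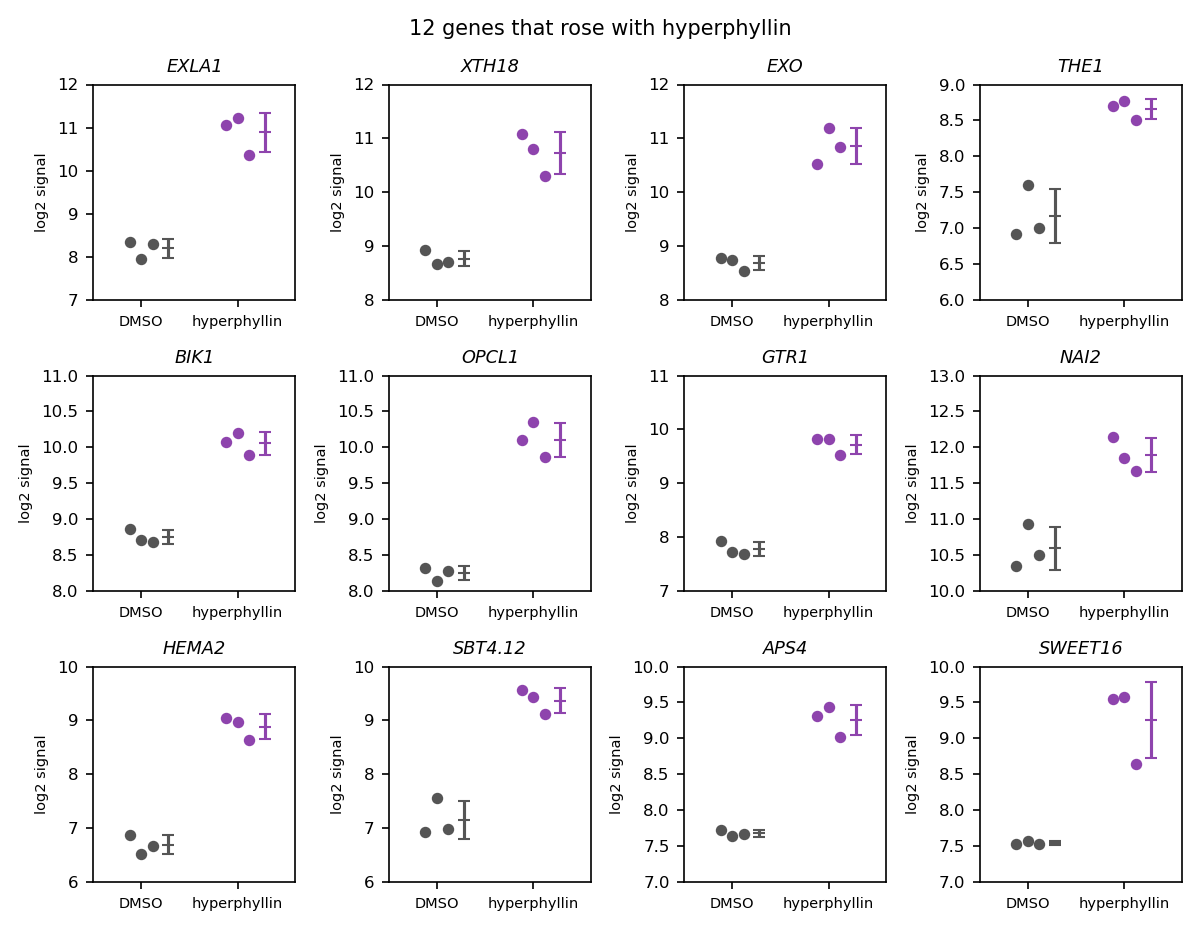
Log2 signal (vertical axes, a separate range for each gene) of 12 genes that rose, with each array as a point, DMSO in grey and hyperphyllin in purple, and the mean ± SD (n = 3) beside the points. In each of the 12 panels every treated array lies above every control, from 2.45-fold for NAI2 to 6.41-fold for EXLA1.

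Of 11 regulators of immunity, jasmonate and salicylate, 5 were higher and 2 lower, with a median of 0.71. The count lower was 1 without control array 3 or treated array 1 or 2. BIK1 (AT2G39660), a cytoplasmic kinase that relays signals from pattern receptors, had log2 signals of 8.87, 8.72 and 8.68 with DMSO and 10.08, 10.2 and 9.89 with hyperphyllin. The spread within each group was small beside the gap, and BIK1 rose 2.46-fold (adjusted p = 0.000134). EFR (AT5G20480), the receptor for bacterial elongation factor Tu, rose 1.81-fold (adjusted p = 0.00939), and SAG101, a partner of the immune regulator EDS1, rose 1.64-fold (adjusted p = 0.00401). B120 (AT4G21390), a lectin-type receptor kinase gene, rose 3.77-fold (adjusted p = 0.000416). PTI1-4, a kinase picked after its values were seen, rose 2.18-fold (adjusted p = 0.00255). STZ (AT1G27730), a zinc finger repressor of stress responses also called ZAT10, had log2 signals of 10.17, 9.69 and 9.33 with DMSO and 10.49, 11.86 and 11.84 with hyperphyllin. The lowest treated array was 0.32 above the highest control, and STZ rose 3.17-fold (adjusted p = 0.00943).

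Jasmonate genes moved both ways. OPCL1 (AT1G20510), a ligase that activates jasmonate precursors in the peroxisome, had log2 signals of 8.33, 8.15 and 8.28 with DMSO and 10.1, 10.35 and 9.87 with hyperphyllin. The groups did not overlap, and OPCL1 rose 3.62-fold (adjusted p = 0.000362). JMT (AT1G19640), which makes the methyl ester of jasmonate, was 2.27-fold lower (adjusted p = 0.000179), with a treated mean under the 25th percentile of mean signal (4.39), so its fold is uncertain. MYC4, a transcription factor of jasmonate responses, was 1.54-fold lower (adjusted p = 0.0249), a call lost without control array 3 (adjusted p = 0.0951) or treated array 1 (0.0788) or 2 (0.0688), and in the fit of only the wild-type groups (0.0533). CCR2 (AT1G80820), a cinnamoyl-CoA reductase of lignin and defence phenolics, rose 3.66-fold (adjusted p = 0.00141). Of 9 U-box ubiquitin ligases, the class that includes negative regulators of pattern-triggered immunity, 5 were higher and none lower (median 0.69). Of 15 tetraspanins, membrane proteins of which TET8 marks secreted vesicles, 3 were higher and 3 lower. The count lower was 0 without control array 3 and in the fit of only the wild-type groups, and 1 without control array 1, treated array 1 or 2 or amp1-13 array 2 or 3. TET8 (AT2G23810) had log2 signals of 10.96, 10.52 and 10.86 with DMSO and 11.62, 12.27 and 12.17 with hyperphyllin. Its groups were separate, and it rose 2.36-fold (adjusted p = 0.00194). TET9 (AT4G30430) rose 5.04-fold (adjusted p = 0.000368), from a control mean under the 25th percentile.

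Genes of glucosinolate storage and transport, the sulfur-rich defence compounds of the Brassicaceae, rose in part. Of 13 glucosinolate and ER-body genes 6 were higher and 2 lower, with a median of 0.39. The count lower was 1 without control array 2 or 3 or treated array 1 or 2. GTR1 (AT3G47960), a plasma membrane importer of glucosinolates, had log2 signals of 7.93, 7.73 and 7.7 with DMSO and 9.82, 9.82 and 9.52 with hyperphyllin. The treated arrays agreed closely and lay apart from the controls, with a rise of 3.82-fold (log2 difference 1.93 ± 0.16 SE, adjusted p = 0.000134). Its paralog GTR2 was 1.34-fold lower (adjusted p = 0.0284), a call lost without control array 2 (0.0547) or 3 (0.0741) or treated array 1 (0.1) or 2 (0.0785). NAI2 (AT3G15950), a structural protein of ER bodies, had log2 signals of 10.36, 10.93 and 10.5 with DMSO and 12.15, 11.85 and 11.68 with hyperphyllin. It rose 2.45-fold (adjusted p = 0.000944), with no overlap. JAL34, a lectin that binds ER-body glucosidases, rose 1.56-fold (adjusted p = 0.0123). NAI1, the factor that activates ER-body genes, rose 1.54-fold (adjusted p = 0.0157), and the call was lost without treated array 1 (adjusted p = 0.0549) or 2 (0.0545). APS4 (AT5G43780), an ATP sulfurylase that starts sulfate assimilation, had log2 signals of 7.73, 7.64 and 7.67 with DMSO and 9.31, 9.44 and 9.02 with hyperphyllin. Its groups were tight and separate, and APS4 rose 2.99-fold (adjusted p = 0.000108).

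Of 22 beta-glucosidases 8 were higher and 3 lower (median 0.17). The count higher was 3 without control array 1, control array 3 or treated array 1, and 5 without treated array 2. BGLU45 (AT1G61810) and BGLU46 (AT1G61820), which can cleave monolignol glucosides, rose 3.12-fold and 3.06-fold (adjusted p = 0.00373 and 0.000772). BGLU28 (AT2G44460), a myrosinase-type enzyme known from sulfur starvation, had log2 signals of 10.12, 9.76 and 10.08 with DMSO and 8.64, 8.51 and 8.92 with hyperphyllin. Here the treated arrays were the lower ones, by 2.45-fold (adjusted p = 0.000389).

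Protease genes moved both ways. All 4 vacuolar processing enzymes, cysteine proteases that mature vacuolar proteins, were lower, and of 10 subtilases, serine proteases mostly of the cell wall, 5 were higher and none lower. BETA-VPE (AT1G62710) had log2 signals of 8.18, 8.15 and 8.17 with DMSO and 7.07, 7.26 and 7.23 with hyperphyllin. The arrays within each group nearly coincided, and the level was 1.98-fold lower (adjusted p = 0.000309). GAMMA-VPE and ALPHA-VPE were 1.97-fold and 1.67-fold lower (adjusted p = 0.00292 and 0.00886). DELTA-VPE, known from seed coats, was 1.26-fold lower at a signal under the 25th percentile, and the call was lost without control array 1 or 3 (0.0685 in each case) or treated array 2 (0.0982), and in the fit of only the wild-type groups (0.0503). SBT4.12 (AT5G59090) had log2 signals of 6.93, 7.56 and 6.99 with DMSO and 9.56, 9.43 and 9.12 with hyperphyllin. It rose 4.62-fold (adjusted p = 0.00052), with no overlap. SBT3.3, a subtilase known from immune priming, rose 2.35-fold (adjusted p = 0.0109), and its control mean lay under the 25th percentile. The split into these subfamilies was made after the values were seen.

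**Figure D3:**
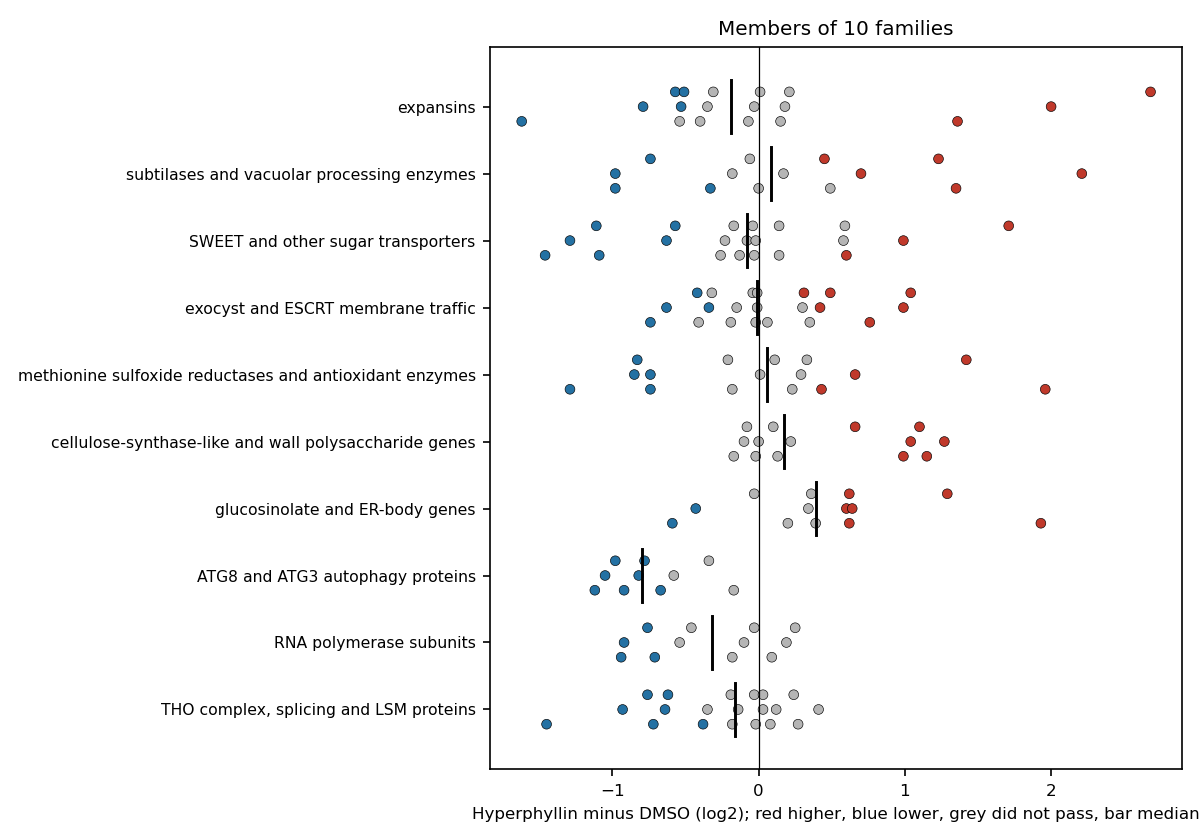
Log2 difference between hyperphyllin and DMSO (horizontal axis) for each member of 10 families, with called rises in red, called falls in blue, other members in grey and the median as a bar. The expansins, the protease list and the SWEET list hold members on both sides, while all ATG8 and ATG3 members lie between -1.12 and -0.17.

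The lists of plastid genes differed in how many members rose. In RNA from whole seedlings, more cells of a green tissue and more RNA per cell cannot be told apart. Whether plastid-encoded RNA was labelled alike on all arrays was not tested. Of 14 genes of chlorophyll and tetrapyrrole synthesis 10 were higher and 1 lower (median 0.69). All 5 Calvin cycle and photorespiration genes found by name were higher (median 0.83), and other genes of these pathways may be on the array without such a name. Of 26 nuclear genes for the photosystems and electron transport 12 were higher and 3 lower (median 0.30), and of 22 plastid-encoded genes for transcription and translation 13 were higher and 1 lower (median 0.62). In 11 of those 13 rises control array 2 was the control nearest to hyperphyllin, against 53.0% of all genes called higher. Without that array 15 of the 22 were higher. Of 47 plastid-encoded photosynthesis genes, the largest of these lists, 12 were higher, 3 lower and 32 did not pass (median 0.21). Of 13 plastid RNA editing genes 2 were higher and 1 lower, which is 23.1% called against 26.8% of all genes. HEMA2 (AT1G09940), a glutamyl-tRNA reductase of the first committed step, had log2 signals of 6.88, 6.53 and 6.68 with DMSO and 9.05, 8.98 and 8.63 with hyperphyllin. The groups did not overlap, and it rose 4.58-fold (adjusted p = 0.000339), the largest rise of the tetrapyrrole list. HEME1, HEMB1 and CHLI2 of that list rose 2.28-fold, 2.13-fold and 1.92-fold (adjusted p = 0.000152, 0.00018 and 0.000282). SBPASE (AT3G55800), a bisphosphatase of the Calvin cycle, rose 2.07-fold (adjusted p = 0.000361), and RCA, Rubisco activase, rose 1.78-fold (adjusted p = 0.00139). The count of higher Calvin genes was 3 without control array 2, control array 3 or treated array 1. Cpn60beta2 (AT3G13470), a plastid chaperonin subunit, had log2 signals of 8.08, 8.27 and 7.94 with DMSO and 9.74, 9.51 and 9.38 with hyperphyllin. Its groups were separate, and it rose 2.72-fold (adjusted p = 0.000176). NdhS and PGRL1B, both of cyclic electron flow, were 1.41-fold and 1.27-fold lower (adjusted p = 0.00604 and 0.045), and the PGRL1B call was lost without control array 1 (0.121) or 3 (0.137) or any 1 treated array (0.0532 to 0.153), without amp1-13 array 2 (0.0665), under the trended and robust prior (0.0647), with the replicate block (0.0621) and in the fit of only the wild-type groups (0.0589). The count of lower photosystem and electron transport genes was 5 without control array 2 and 1 without control array 3. The lower tetrapyrrole gene was lost without any 1 of the wild-type arrays other than control array 2, or without amp1-13 array 2 or 3. The lower plastid gene of transcription and translation was lost without control array 1 or 3, treated array 2 or 3 or amp1-13 array 2.

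Marker lists of single cell types were small. Of 3 LHCB4 antenna genes of leaf mesophyll 2 were higher, with LHCB4.1 at 12.64, 12.5 and 12.3 with DMSO and 13.24, 13.03 and 13.07 with hyperphyllin. Of 4 stomatal lineage genes 1 was lower, FMA (AT3G24140), the guard cell regulator FAMA, by 1.75-fold (adjusted p = 0.0089). None was called among 2 root hair expansins, 2 xylem wall genes, and 1 gene each for trichomes, phloem, seed oil bodies and the shoot meristem. The meristem marker CLV3 had signals of 3.72 to 3.85 on the 6 arrays, under the 25th percentile. The part of cell type shares in the other results was not tested.

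Thiol and antioxidant genes gave no common direction. Of 13 glutaredoxins and thioredoxins 5 were higher and 4 lower, with 2 lower without any 1 of the wild-type arrays other than control array 2 or without amp1-13 array 2 or 3, and of 16 methionine sulfoxide reductases and antioxidant enzymes 4 were higher and 5 lower. Enzymes of the plastid were among the risers: NTRC (AT2G41680), a thioredoxin reductase with its own thioredoxin domain, rose 2.11-fold (adjusted p = 0.00108), and ty2 (AT1G43560), a y-type thioredoxin, rose 1.85-fold (adjusted p = 0.000928). TY1 (AT1G76760), of the same type, was 1.85-fold lower (adjusted p = 0.00564). MSRB6 (AT4G04840), which repairs oxidised methionine, had log2 signals of 7.8, 6.59 and 6.9 with DMSO and 9.61, 9.14 and 8.4 with hyperphyllin. The lowest treated array stood above the highest control, and it rose 3.88-fold (adjusted p = 0.00572). MSRB9 rose 2.68-fold (adjusted p = 0.00119), and MSRB5 was 1.67-fold lower (adjusted p = 0.000869). SRX (AT1G31170), sulfiredoxin, which reactivates peroxiredoxins, had log2 signals of 10.73, 9.77 and 10.55 with DMSO and 9.17, 8.9 and 9.12 with hyperphyllin. The second control lay between the other controls and the treated arrays, and SRX was 2.44-fold lower (adjusted p = 0.00318).

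Sugar transport and starch genes held several falls. Of 21 SWEET and other sugar transporter genes 3 were higher and 6 lower (median -0.08). SWEET14 (AT4G25010), a plasma membrane sucrose exporter, had log2 signals of 6.26, 6.27 and 6.28 with DMSO and 5.33, 5.11 and 5.1 with hyperphyllin. The controls nearly coincided, and the level was 2.13-fold lower (adjusted p = 0.000258). SWEET13, SWEET4 and SWEET10 were 2.76-fold, 2.44-fold and 2.16-fold lower (adjusted p = 0.000439, 0.00656 and 0.0166). SWEET13 had a treated mean under the 25th percentile, as had SWEET4, and the SWEET10 call was lost without control array 1 (0.0617) or 3 (0.0529) or treated array 2 (0.0658). The 3 members that rose were SWEET16, SWEET17 and SWEET2, which transport sugars across the vacuolar membrane. SWEET16 (AT3G16690) had log2 signals of 7.54, 7.58 and 7.53 with DMSO and 9.55, 9.58 and 8.64 with hyperphyllin. It rose 3.27-fold (adjusted p = 0.00123), with no overlap. SWEET17 rose 1.51-fold (adjusted p = 0.0134), and SWEET2 rose 1.99-fold (adjusted p = 0.0255), a call lost without control array 2 (0.0556), control array 3 (0.0668) or treated array 1 (0.0664).

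Of 9 starch genes none was higher and 3 were lower. APL3 (AT4G39210), a large subunit of the enzyme that makes ADP-glucose, had log2 signals of 7.27, 7.5 and 7.34 with DMSO and 5.38, 5.21 and 6.22 with hyperphyllin. The groups did not overlap, and APL3 was 3.39-fold lower (adjusted p = 0.00075). PWD at AT4G24450, annotated as a water dikinase, was 2.61-fold lower (adjusted p = 0.00192), while the second gene of that symbol did not pass the test. QQS, which affects starch content, was 1.92-fold lower (adjusted p = 0.0296), a call lost without control array 1 (0.0719) or 3 (0.0759) or treated array 2 (0.0671) or 3 (0.0956), and in the fit of only the wild-type groups (0.066). ATSPS4F (AT4G10120), a sucrose-phosphate synthase, was 2.28-fold lower (adjusted p = 0.00839). Of 14 genes of amino acid breakdown 3 were higher and 4 lower, and the lower count was 2 without control array 1, control array 3, treated array 2 or amp1-13 array 2. MCCA, of leucine breakdown, rose 2.12-fold (adjusted p = 0.00477).

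SUFE2 (AT1G67810), an activator of iron-sulfur cluster assembly, had log2 signals of 9.58, 9.72 and 9.81 with DMSO and 7.46, 7.21 and 8.05 with hyperphyllin. The highest treated array lay 1.53 below the lowest control, a fall to a level 4.37-fold lower (log2 difference -2.13 ± 0.2 SE, adjusted p = 0.000209). ALN (AT4G04955), allantoinase of purine recycling, had log2 signals of 9.47, 9.6 and 9.69 with DMSO and 7.58, 7.85 and 8.3 with hyperphyllin. It was 3.19-fold lower (adjusted p = 0.000388), with no overlap. SAL2 (AT5G64000), of the phosphatase family of SAL1, was 3.55-fold lower (adjusted p = 0.000559), and DI21 (AT4G15910), a drought-induced gene, was 4.02-fold lower (adjusted p = 0.000356). CHX20 (AT3G53720), a cation exchanger known from guard cells, was 2.47-fold lower (adjusted p = 0.00268).

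Of 21 regulators of leaf shape and meristems 3 were higher and 2 lower (median -0.08), which is 23.8% called against 26.8% of all genes. YAB3, a YABBY transcription factor of lateral organs, rose 1.51-fold (adjusted p = 0.0157). WAG2 (AT3G14370), a kinase that acts on auxin efflux carriers, is not on that list. It had log2 signals of 7.4, 8.1 and 7.56 with DMSO and 5.97, 5.94 and 6.18 with hyperphyllin. The highest treated array stood 1.22 below the lowest control, and WAG2 was 3.15-fold lower (adjusted p = 0.000282). NGA1 (AT2G46870), a B3-type transcription factor of leaf and style development, was 2.71-fold lower (adjusted p = 0.000443). NGA2 was called lower and NGA3 higher. Both calls were lost without control array 1 (adjusted p = 0.0537 and 0.126) or 3 (0.0574 and 0.102), among other settings. The peptide gene CLE27, also not on that list, was 2.96-fold lower (adjusted p = 0.00187), and CLE26 was 2.28-fold lower (adjusted p = 0.00766). Of 16 genes of auxin synthesis, conjugation and response none was higher and 5 were lower (median -0.25), 7 of the 16 lying under the 25th percentile. YUC6 and YUC2, flavin monooxygenases of auxin synthesis, were 1.49-fold and 1.46-fold lower (adjusted p = 0.0275 and 0.0256). The YUC6 call was lost without control array 3 (0.0678) or treated array 1 (0.0921) or 2 (0.0735) and in the fit of only the wild-type groups (0.0506), and the YUC2 call without control array 3 (0.0989) or treated array 1 (0.07) or 3 (0.0828). The count of lower auxin genes was 1 without control array 3 or treated array 1 and 3 without control array 1 or treated array 2.

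**Figure D4:**
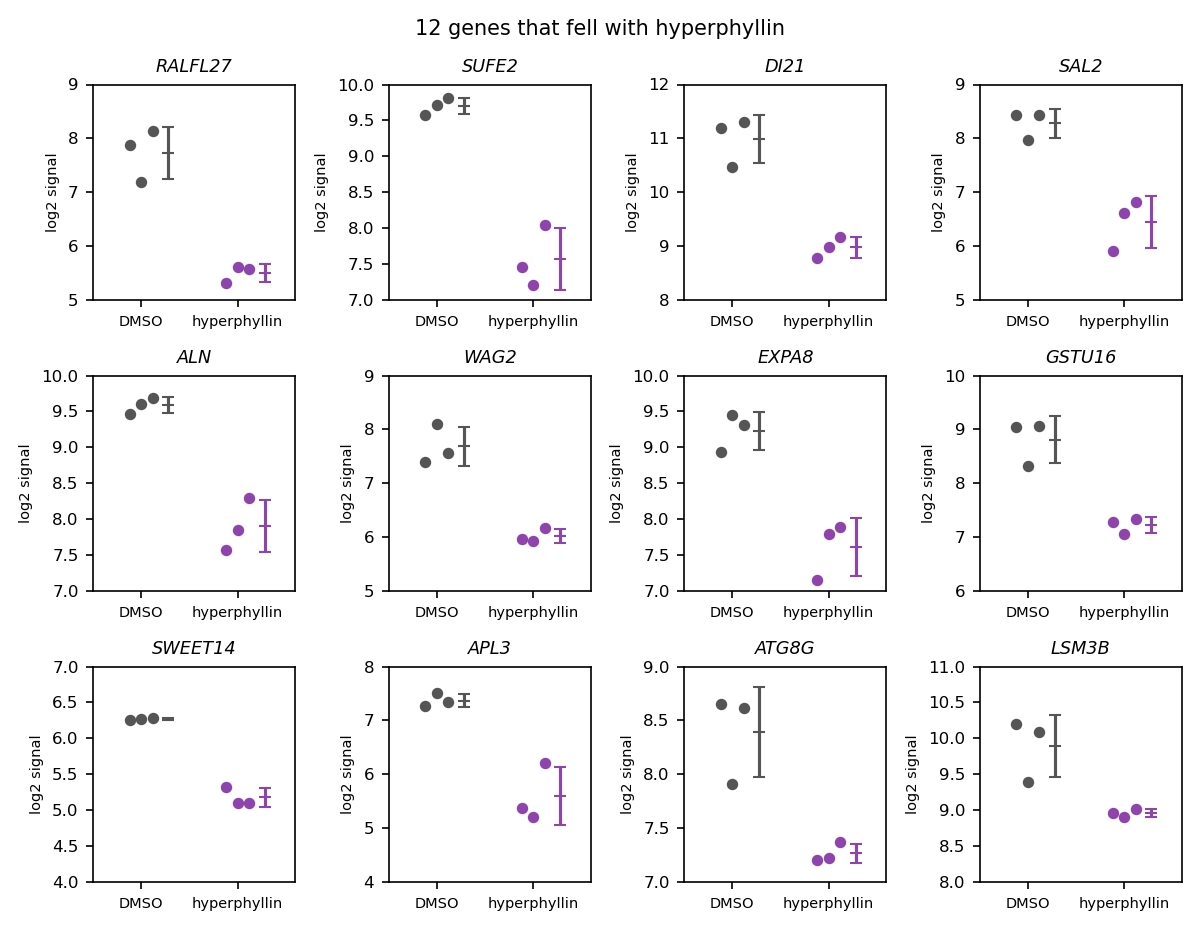
Log2 signal (vertical axes, a separate range for each gene) of 12 genes that fell, with each array as a point, DMSO in grey and hyperphyllin in purple, and the mean ± SD (n = 3) beside the points. Every treated array lies below every control in each panel, from 1.91-fold lower for LSM3B to 4.67-fold lower for RALFL27, and in RALFL27, DI21, SAL2, GSTU16, ATG8G and LSM3B the middle control point, array 2, is the lowest of the controls.

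Of 9 RING-type ubiquitin ligases 5 were lower and 2 higher (median -0.40). XERICO (AT2G04240), a RING protein linked to abscisic acid, was 1.93-fold lower (adjusted p = 0.00428), and ATL8 rose 2.04-fold (adjusted p = 0.00392). Of 10 ATG8 and ATG3 genes, whose proteins build the autophagosome membrane, 7 were lower, all ATG8 members, and none higher (median -0.80). ATG8G (AT3G60640) had log2 signals of 8.65, 7.91 and 8.62 with DMSO and 7.21, 7.23 and 7.37 with hyperphyllin, with the second control between the others and the treated arrays. It was 2.18-fold lower (adjusted p = 0.00237), and APG8H (AT3G15580) was 1.89-fold lower (adjusted p = 0.000553).

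Of 12 RNA polymerase subunit genes 4 were lower and none higher (median -0.32). All 4 were among the 6 NRPB genes, which encode subunits of RNA polymerase II, some of them shared with other RNA polymerases. NRPB12 (AT5G41010) had log2 signals of 9.82, 9.13 and 9.79 with DMSO and 8.62, 8.65 and 8.69 with hyperphyllin. The treated arrays nearly coincided, and it was 1.9-fold lower (adjusted p = 0.0039). NRPB7, which with its partner forms the stalk of the enzyme, was 1.69-fold lower (adjusted p = 0.00605). Of 20 THO, splicing and LSM genes 7 were lower and none higher (median -0.16), and 5 of the 7 were among the 6 LSM genes, whose proteins form rings on RNA ends. LSM3A (AT1G21190) had log2 signals of 8.68, 7.36 and 8.31 with DMSO and 6.63, 6.69 and 6.67 with hyperphyllin. It was 2.73-fold lower (adjusted p = 0.00457), and its paralog LSM3B 1.91-fold (adjusted p = 0.00505). In all 7 called ATG8 genes, all 4 called NRPB genes and all 7 called THO, splicing and LSM genes the second control array was the control nearest to hyperphyllin, against 74.3% of all genes called lower. Without that array the counts lower were 9, 6 and 9, and the counts higher were 0, 2 and 4.

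Membrane traffic genes moved both ways. Of 7 exocyst subunits, which tether secretory vesicles at the plasma membrane, 3 were higher and none lower, and of 14 ESCRT-related genes, which sort membrane proteins for the vacuole, 3 were higher and 4 lower. SEC15B (AT4G02350) rose 1.98-fold (adjusted p = 0.000944), and ELC (AT3G12400), an ESCRT-I subunit, rose 2.06-fold (adjusted p = 0.00121). SNF7.2 (AT2G19830), of ESCRT-III, was 1.68-fold lower (adjusted p = 0.00414). The count of higher members over both was 3 without treated array 2, and that of lower members 7 without control array 2. NET4B (AT2G30500), an actin-binding protein of the vacuolar membrane, had log2 signals of 7.99, 8.36 and 8.05 with DMSO and 9.71, 10.15 and 9.82 with hyperphyllin. Its groups did not overlap, and it rose 3.39-fold (adjusted p = 0.000396).

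Detoxification families were mixed. Of 51 UDP-glycosyltransferases 12 were higher and 9 lower (median -0.05), and the count higher was 6 without control array 3 or treated array 1 or 2. The count lower was 4 without control array 3 and 5 without treated array 2. UGT73B1 rose 2.97-fold (adjusted p = 0.000344), UGT76B1, which glucosylates an immune-modulating acid, rose 2.23-fold (adjusted p = 0.00936), and UGT85A5 was 2.54-fold lower (adjusted p = 0.00025). Of 14 glutathione transferases 2 were higher and 5 lower (median -0.37). GSTU16 (AT1G59700) had log2 signals of 9.05, 8.32 and 9.07 with DMSO and 7.29, 7.07 and 7.34 with hyperphyllin. All treated arrays were below all controls, by 2.98-fold (adjusted p = 0.00058). GSTU22 rose 2.05-fold (adjusted p = 0.00964).

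Some families stayed at or under the background share of 26.8%, and so under the 32.8% of genes with a symbol. Of 18 CYP71B cytochromes P450 4 were called (22.2%), of 23 cell division and replication genes 4 (17.4%), of 29 carboxypeptidase-like SCPL genes 4 (13.8%), and of 18 genes of citrate and organic acid metabolism 2 (11.1%). In the last list the count higher was 1, and 5 without control array 2 and 0 without control array 1 or 3 or treated array 1 or 3. Its count lower was 1, and 3 without control array 2, 2 without treated array 3 and 0 without control array 1 or treated array 1 or 2. In the cell division list the count higher was 4, and 1 without control array 1 or 3 or treated array 1 or 3. Its count lower was 0, and 3 without control array 2 and 1 without control array 1 or treated array 1. The 2 lower SCPL genes were 1 without control array 2, treated array 1 or 2 or amp1-13 array 2 or 3, and the 1 higher CYP71B gene was lost without treated array 2.

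**Figure D5:**
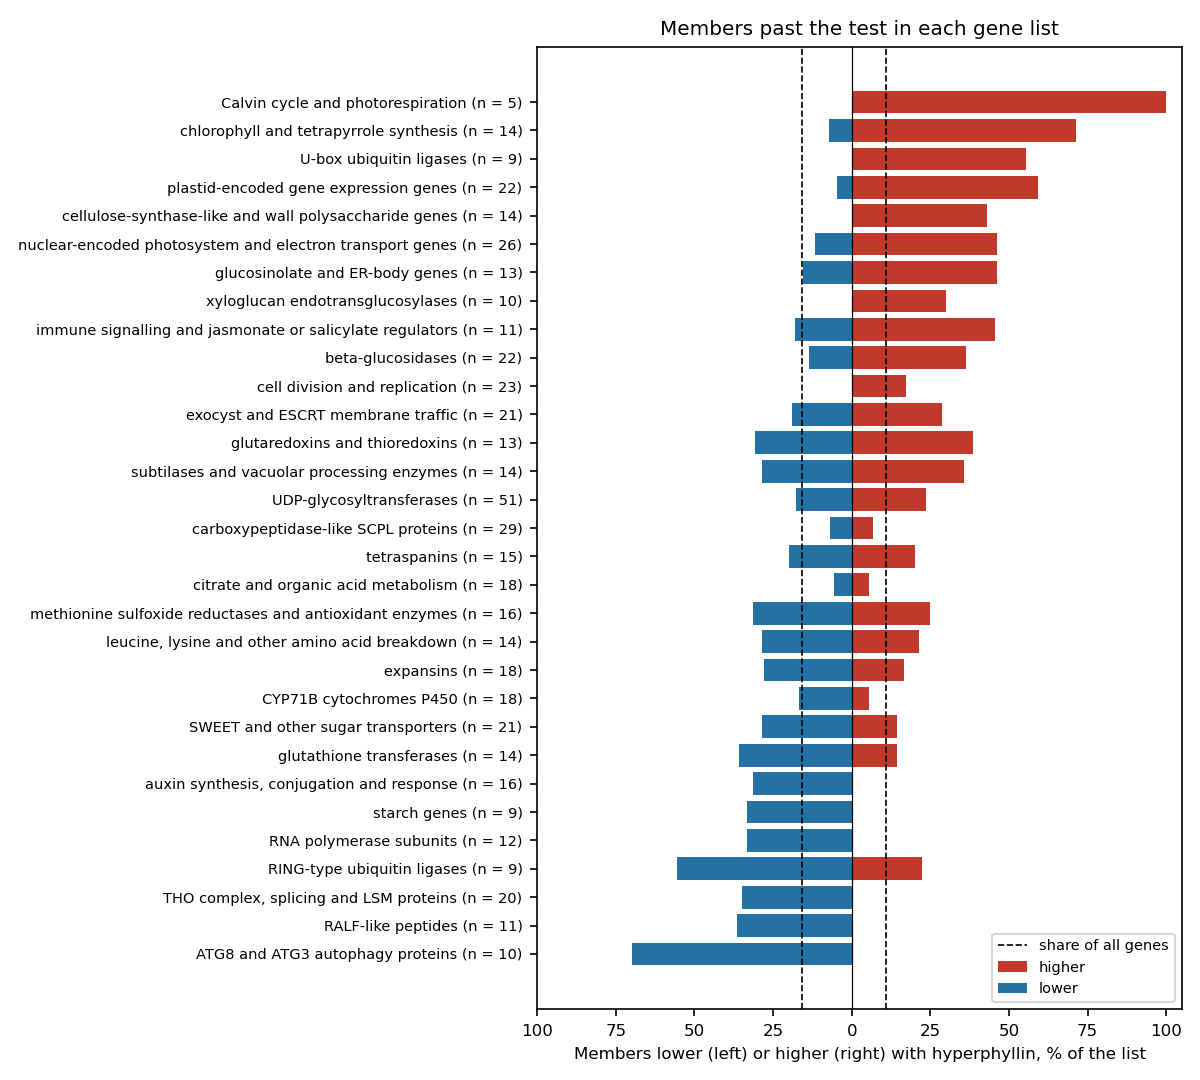
Share of each of 31 gene lists (n, members measured) that was called higher (red, right) or lower (blue, left) with hyperphyllin, in percent. The dashed lines give the shares over all genes, 11.0% higher and 15.8% lower. Of the 1557 genes with a symbol, from which most list members came, 260 were higher and 251 lower. The lists run from all 5 listed Calvin cycle and photorespiration genes higher to 7 of 10 ATG8 and ATG3 genes lower.

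The difference between hyperphyllin-treated wild type and amp1-13 was tested in the same fit, and 5.35% of genes were called. BGLU28 was lower with the compound than in the mutant by -2.51 on the log2 scale (adjusted p = 5.02e-05). PDF1.4 (AT1G19610), a defensin gene that rose 5.45-fold against DMSO, was higher with the compound than in the mutant by 3.17 (adjusted p = 0.00356). MSRB6 was higher by 2.26 (adjusted p = 0.00948), and SUFE2, SAL2 and BETA-VPE were lower by -1.81, -1.57 and -0.67 (adjusted p = 0.00138, 0.00379 and 0.00537). For EXO, BIK1, LSM3B and ATG8G the difference from the mutant did not pass the test (adjusted p = 0.975, 0.643, 0.982 and 0.855), which does not show that the levels were alike.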

How the data were processed

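The authors deposited log2 signals made with RMA from Affymetrix ATH1 arrays, per the submitters' processing notes. The software version was not given in the sources used here. As deposited, the log2 values were used without further filtering or normalization once 64 control probe sets had been set aside. The arrays carry no count depth, and their number, 3 per group, limits the precision.

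Differences were fitted in limma (3.58.1, under R 4.3.3) to all 9 arrays, each group having its own mean, with default empirical Bayes moderation (6 residual and 3.45 prior degrees of freedom), two-sided tests and Benjamini-Hochberg adjustment over 22746 probe sets. The fit was tested on simulated data. Of the probe sets, 13513 named 1 gene, 503 named several and 8730 are not named here. Where several probe sets named a gene, the brightest on average stood for it, which gave 13356 genes. The smallest p an exact permutation test can reach with 3 arrays per group is 0.1.

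Lists came from gene names, and the members and lists were chosen with earlier results of these data known. Of 68 lists counted, the 31 whose counts are recomputed below were picked after all counts had been seen, as were the splits of lists into subfamilies (EXLA and EXPA, polymerase and LSM subunits, exocyst and ESCRT, vacuolar SWEET transporters, protease classes). From each list up to 4 genes per direction with the largest difference among those past an adjusted p of 0.05 and without overlap were named, or, in lists without any, at most 2 of lowest p. To these were added the 40 largest rises and 40 largest falls among genes with a symbol. FER, PTI1-4 and RING1 were added after their values were seen, and RING1 is counted below without being described. The labels do not pair the samples by replicate number. Deviations of same-numbered control and treated arrays correlated at 0.005, -0.037 and -0.013. For wild-type arrays and same-numbered amp1-13 arrays the values ran from -0.197 to 0.226. With 3 arrays per group, these values cannot decide whether same-numbered arrays were paired. Alternatives were a filter at the 25th percentile of mean signal, repeated quantile normalization, centring, array weights, a robust prior with a trend, the replicate number as a block, only the wild-type groups, a 2-fold minimum and leaving out each array.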

Additional observations from a re-analysis of the deposited data

How the results depend on the processing

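There were 289 called gene results, chosen by the naming rule or added after their values were seen. Of these 192 were called under each of the 16 alternatives that tested them and 97 lost the call under at least 1, with no change of direction. Genes that the filter removed were tested under 15. The 2-fold minimum is not among the 16. Most losses came from leaving out 1 control or treated array (11 to 82 genes). Without control array 2 there were 11, and in the fit of only the wild-type groups 50. The replicate block, although the labels state no pairing, gave 2892 probe sets higher and 3383 lower, and 17 of the gene calls were lost.

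Against 3023 higher and 3544 lower probe sets, array weights gave 4988 and 5497, and a 2-fold minimum 1005 and 558. Leaving out 1 array in turn gave 1921 to 4422 higher and 1960 to 4447 lower, with the lowest counts without control array 3 and the highest without control array 2. The cause was not tested.

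Leaving out 1 array moved the median log2 difference to 0.59 to 0.72 for tetrapyrrole synthesis, 0.60 to 0.84 for immune regulators, 0.52 to 0.81 for U-box ligases, -0.26 to -0.09 for expansins and 0.06 to 0.34 for wall polysaccharide genes. It was -0.28 to -0.01 for starch genes, 0.02 to 0.22 for amino acid breakdown and -0.47 to -0.20 for RNA polymerase subunits. For UDP-glycosyltransferases it was -0.10 to 0.00, and the median changed sign without control array 1. The range also held both signs for glutaredoxins and thioredoxins (-0.05 to 0.06), SCPL genes (-0.08 to 0.01), and exocyst and ESCRT genes (-0.02 to 0.01). The filter at the 25th percentile, which leaves fewer genes, gave medians of 0.85 for immune regulators, 0.40 for beta-glucosidases, -0.35 for expansins, 0.40 for wall polysaccharide genes, 0.31 for proteases, -0.25 for CYP71B and 0.10 for SCPL genes.

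For counts of list members, only leaving out wild-type arrays and the filter had been planned, and the other alternatives were added after seeing the data. Averaging all probe sets of a gene was run for the medians and not for the counts. Counts of called members without 1 array ranged from 3 to 5 for higher Calvin genes, 3 to 8 for higher beta-glucosidases, 3 to 6 for lower expansins, 3 to 8 for higher exocyst and ESCRT genes and 2 to 4 for lower amino acid breakdown genes. They ranged from 6 to 12 for higher UDP-glycosyltransferases, 1 to 6 for lower auxin genes, 1 to 5 for lower RALF-like genes, 1 to 6 for higher cell division genes and 0 to 5 for higher citrate genes. In the fit of only the wild-type groups, with fewer samples, these were 3 Calvin, 4 beta-glucosidase, 3 expansin, 3 auxin, 1 RALF-like, 2 cell division and 0 citrate genes. The filter left 3 lower auxin genes. Array weights gave 10 lower glutathione transferases, 5 lower CYP71B, 6 higher citrate and 5 higher SCPL genes. Among higher counts, it gave 2 RNA polymerase, 5 sugar transporter, 4 splicing, 1 auxin and 5 amino acid breakdown genes. Among lower counts, it gave 14 UDP-glycosyltransferases, 4 SCPL, 3 cell division, 5 citrate, 5 photosystem, 7 tetraspanin and 2 xyloglucan endotransglucosylase genes.

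In the other direction of these lists, leaving out 1 array gave 0 to 1 higher CYP71B, 0 to 2 higher RNA polymerase and 0 to 4 higher splicing genes. Among lower counts it gave 4 to 9 UDP-glycosyltransferases, 3 to 7 exocyst and ESCRT genes, 2 to 4 glutaredoxins and thioredoxins, 1 to 5 photosystem, 0 to 4 tetraspanin and 1 to 3 SCPL genes. It gave 0 to 3 each for cell division, citrate and xyloglucan endotransglucosylase genes, 1 to 2 each for glucosinolate and immune genes, and 0 to 1 each for tetrapyrrole and plastid gene expression genes. The fit of only the wild-type groups gave 1 lower SCPL, 1 immune and 0 tetrapyrrole, citrate and tetraspanin genes. The filter gave 1 lower cell division, 1 immune and 0 tetrapyrrole and citrate genes. Repeated quantile normalization gave 1 lower cell division gene, centring 2 cell division and 1 xyloglucan endotransglucosylase gene, the robust prior 1 xyloglucan endotransglucosylase gene, and the replicate block 0 plastid gene expression genes.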

Other observations

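Several further families were measured. Of 12 ubiquitin proteases, which remove ubiquitin from proteins, 4 were higher with hyperphyllin and none lower, while of 12 ubiquitin-conjugating enzymes none was higher and 2 were lower. UBC29 (AT2G16740) was 2.33-fold lower (limma adjusted p = 0.000491), with log2 signals of 10.08, 9.75 and 10.18 with DMSO and 8.59, 8.81 and 8.95 with hyperphyllin. Of 8 histone genes none was higher and 3 were lower. Of 5 sulfate assimilation genes 2 were higher and 1 lower. Of 40 MADS-box genes none was higher and 6 were lower, and 29 of the 40 lay under the 25th percentile of mean signal. Among cell wall lists, of 15 family 9 endoglucanases 1 was higher and 1 lower, of 7 pectin enzymes 1 and 1, and of 22 trichome-birefringence-like genes 3 and 1. Among signalling and defence lists, of 8 calmodulin-like genes 2 were higher and 2 lower, of 7 WRKY factors 3 and 0, of 19 secreted defence proteins 3 and 1, and of 8 flavonoid genes 1 and 0. Among growth and hormone lists, of 7 tubulins 1 was higher and 2 lower, of 15 IQD genes 2 and 3, of 14 TRM genes 2 and 2, of 22 NET and myosin genes 4 and 1, of 8 cytokinin genes 1 and 1, and of 6 gibberellin genes 0 and 2. In the remaining lists, of 17 bZIP factors 2 were higher and 2 lower, of 9 iron-related genes 0 and 2, of 15 cation exchangers and glutamate receptors 3 and 1, of 7 alternative NADH dehydrogenases and cytochrome c genes 0 and 1, of 14 cytosolic chaperones 1 and 3, of 16 genes of folding and degradation in the endoplasmic reticulum 2 and 1, and of 11 PRA1 genes 1 and 0. The counts stand against 11.0% higher and 15.8% lower over all genes, and against 260 higher and 251 lower of the 1557 genes with a symbol. Of 14 cold-regulated and LEA genes 2 were higher and 3 lower. LTI30 (AT3G50970), a dehydrin gene, rose 4.25-fold (adjusted p = 0.0225), a call lost without control array 3 (0.0695) or treated array 1 (0.0661) or 2 (0.0686). COR15B (AT2G42530), a plastid protein of cold acclimation, was 2.26-fold lower (adjusted p = 0.0123).

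Directions were also read along the chromosomes. In the gene order of the TAIR10.1 assembly, 542 pairs of adjacent genes were both called, and 328 of them (60.5%) had the same direction. The share was 56.1% for genes 2 places apart, 51.9% at 5 places, 50.9% at 10 places and 50.8% at 50 places. No test of these shares was run, tandem copies of a gene were not removed, and the part of cross-hybridisation between them was not tested.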
